A study of Mus musculus with 5 samples.

Results

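Regions of mouse chromatin found with an anti-FLAG antibody under CHIR99021, and in no other peak list of tagged β-catenin, numbered 6652. They were chosen by merging peaks of the 3 deposited lists that overlapped or touched and keeping the merged regions whose peaks all came from the anti-FLAG list. They made up 19.9% of 33485 merged regions (95% exact interval 19.4 to 20.3%) and 41.4% of 16069 anti-FLAG peaks (40.6 to 42.2%). Each of the 6652 regions was a single anti-FLAG peak. Another 162 anti-FLAG peaks overlapped or touched a DMSO peak but no streptavidin peak and were therefore left out, and 9255 lay in regions held by both CHIR99021 lists.

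β-Catenin carries the canonical Wnt signal into the nucleus, where it binds DNA through partners such as the TCF and LEF factors and not by itself. The kinase GSK3 marks it for degradation, and CHIR99021, a GSK3 inhibitor, lets it accumulate. In mouse embryonic stem cells Wnt signalling favours self-renewal, in part by relieving repression by Tcf7l1. FLAG is a short peptide epitope read by an antibody, whereas BirA adds biotin to its own short acceptor peptide, which streptavidin then holds very tightly.

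The cells were V6.5 embryonic stem cells that carried biotin and 3xFLAG tags as a knock-in at Ctnnb1, which encodes β-catenin. They were kept with serum and LIF on DR4 feeder cells. The tagged line carried BirA, and floating cells were taken as a fraction enriched in stem cells after the feeders had been left to settle. The groups were CHIR99021 at 3 µM captured with anti-FLAG, CHIR99021 at 3 µM captured with streptavidin, and DMSO captured with streptavidin, with 1 library each. The DMSO capture is given as the label has it, although its run and its deposited peak list were named for FLAG. The protocol gives 16 hours of treatment and the series text 24 hours. The extraction protocol writes the dose as 3 mM, whereas the treatment labels give 3 µM. Input chromatin of CHIR99021-treated and DMSO-treated cells served as control of the peak calls. A ChIP library of untagged cells was not among the 5 samples, and the labels do not say how many clones the knock-in line stands for. With 1 library in each group, no replicate error can be given for any value below. Intervals cover counting error over regions only.

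The anti-FLAG library had 16100920 unique tags and the CHIR99021 streptavidin library 11934863, per the file headers, while the DMSO depth is unknown. The headers give an estimated fragment size d of 185, 214 and 30 bp, in the order of the groups above. DMSO peaks were short, and they excluded few regions: without the DMSO list the anti-FLAG-only regions numbered 6814. Streptavidin beads were washed in SDS, and anti-FLAG ChIP followed a separate published procedure, per the labels' protocols. Depth, fragment size d and washing all differed between the 2 CHIR99021 lists. So did the model fold setting in the headers, 20 for anti-FLAG and 32 for streptavidin. The part of these differences in the absence of a streptavidin peak was not tested. Positions are in mm9 coordinates throughout. No mm9 sequence or gene annotation was used here, so positions are given without genes or motifs.

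Most anti-FLAG-only regions were weak, short peaks close to the limit of detection. They held 14 to 222 tags, with a median of 25 and quartiles of 18 and 37, whereas anti-FLAG peaks in regions of both lists had a median of 55 with quartiles of 36 and 89. Over all anti-FLAG peaks the median was 39. Of the anti-FLAG-only regions, 2060 (31.0%) held at most 19 tags, against 2338 of all 16069 anti-FLAG peaks. The lowest count in the anti-FLAG list, 14, was held by 201 anti-FLAG-only regions. Only 70 (1.05%) held 100 tags or more, against 2011 of all 16069 anti-FLAG peaks. The tag counts come from the same list that chose the regions, so these values describe the regions and test nothing.

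Their length ran from 259 to 3758 bp, with a median of 686 bp, against 972 bp for anti-FLAG peaks in regions of both lists and 859 bp for all anti-FLAG peaks. They were also less densely tagged. The median was 36.6 tags per kb in anti-FLAG-only regions and 53.6 tags per kb in peaks of both lists. Summits sat near the middle of the peak in both groups, at a median of 50.2% of the length each, but with a wider spread in anti-FLAG-only regions (quartiles 40.0 and 60.9%) than in peaks of both lists (42.1 and 58.5%). Together the anti-FLAG-only regions covered 5.08 Mb and held 204401 tags. That was 33.0% of the length and 22.5% of the tags of all anti-FLAG peaks, and 1.27% of the unique tags of the library.

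**Figure D1:**
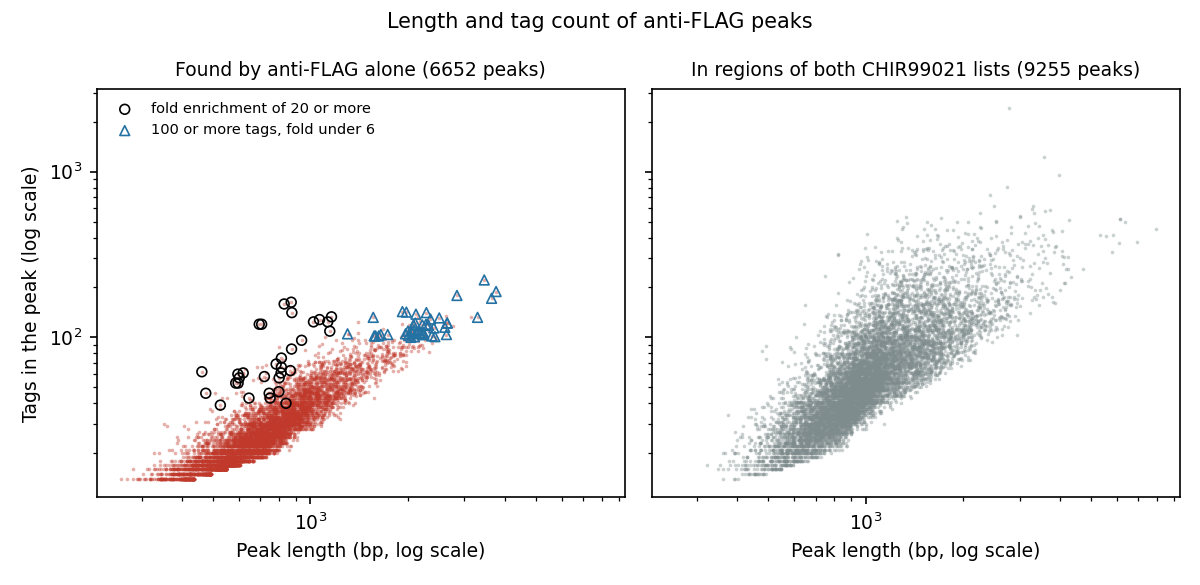
Length (bp) against tag count of single anti-FLAG peaks, both on log scales, for the 6652 peaks found by anti-FLAG alone (left) and the 9255 in regions of both CHIR99021 lists (right). Circles mark 32 steep peaks with a fold enrichment of 20 or more and triangles 45 broad peaks with 100 or more tags and a fold under 6; nearly all other anti-FLAG-only peaks lie below 100 tags, while peaks of both lists reach 2435.

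The authors' own scores place the regions at the same end of the list. The p score, 10 times −log10 of the peak's p-value, had a cutoff of 50. In 2967 anti-FLAG-only regions (44.6%) it was under 60, against 3829 of all 16069 anti-FLAG peaks. The median was 61.9, against 136 for anti-FLAG peaks in regions of both lists. A score of 100 was reached by 682 anti-FLAG-only regions (10.3%), while 42.2% of all anti-FLAG peaks reached it. A fold enrichment of 10 over the local background was reached by 589 (8.85%), against 32.9% of all anti-FLAG peaks. A false discovery rate of at most 1% was met by 2731 (41.1%), against 64.8% of all anti-FLAG peaks. All 3 limits together were met by 348 (5.23%), a share that was not worked out for all anti-FLAG peaks. Since the rule selects on calls from the same list, nothing is read from these shares.

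Among most anti-FLAG-only regions the false discovery rate was lower where the p score was higher. The median p score was 51.6 in the 1399 regions with a rate over 2%, 61.0 in the 1511 between 1 and 1.5%, 71.0 in the 1278 between 0.5 and 1%, and 94.0 in the 1253 between 0.3 and 0.5%. The lowest rates, up to 0.3%, belonged to 200 regions with p scores between 107.98 and 126.33. Among the few regions with the highest scores the order turned. In the 654 regions with scores of 100 to under 300 it lay between 0.29 and 0.49%. In the 28 regions with scores of 300 or more it lay between 0.51 and 1.6%, and the region with the highest score of all had 1.6%. A limit of 1% would therefore drop 2 of the 12 regions with a score of at least 500, along with 3919 of the 5970 with a score under 100.

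The share of anti-FLAG peaks that had no partner in the other lists depended on rank. In the top decile by p score it was 1.18% (19 peaks, interval 0.713 to 1.84%), in the fifth decile 36.2% (33.9 to 38.6%) and in the lowest decile 81.2% (79.2 to 83.1%). Ranked by tag count, the top and lowest deciles had 2.43 and 90.3%. Ranked by fold enrichment, the top decile had 2.68%, the fifth had 52.8% (50.4 to 55.3%), the ninth 64.5% (62.1 to 66.8%) and the lowest 61.7% (59.3 to 64.1%). By bands of tags, 88.1% of peaks with under 20 tags were found by anti-FLAG alone, 39.5% of those with 30 to under 50, and 3.48% of those with 100 or more. By bands of length, it was 85.3% under 500 bp and 10.7% at 2000 bp or more.

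**Figure D2:**
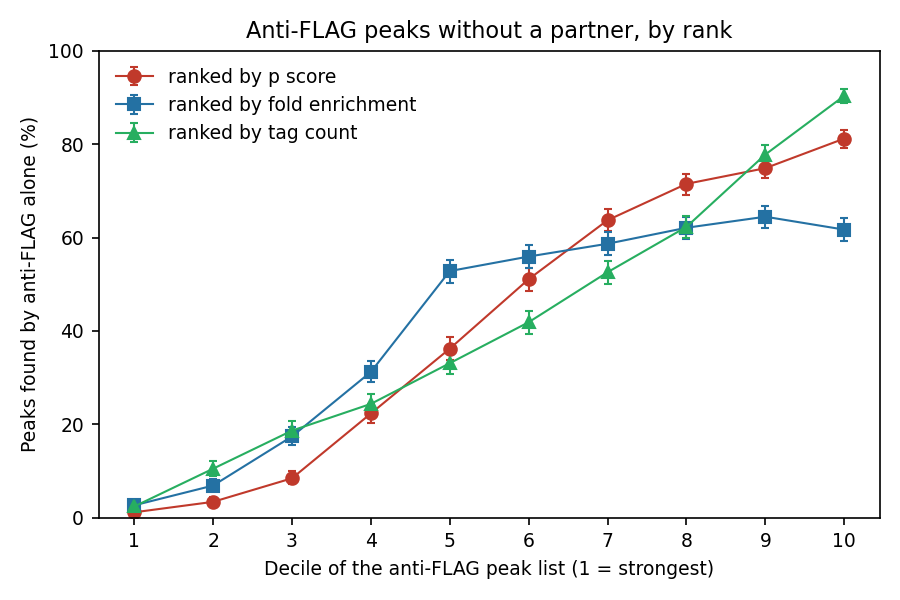
Share of anti-FLAG peaks (%) found by anti-FLAG alone in each decile of the list, from the strongest (1) to the weakest (10), ranked by p score, fold enrichment or tag count; bars are 95% exact intervals. By p score the share is 1.18% in the first decile and 81.2% in the last, while by fold enrichment it is 2.68% in the first, 52.8% in the fifth and 61.7% in the last.

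The 2 CHIR99021 libraries differed in depth, and the part of depth in these shares was not tested. The streptavidin library had 0.741 times the unique tags of the anti-FLAG library. Scaled by that ratio, the median anti-FLAG-only region would hold 18.5 tags, and 1294 regions (19.5%) would hold fewer than 13, the lowest tag count of any streptavidin peak. Among anti-FLAG peaks in regions of both lists that share was 1.25%. At the other end, 1011 anti-FLAG-only regions (15.2%) would still hold at least 34 tags, the median of the streptavidin list, against 61.2% of anti-FLAG peaks in regions of both lists. In regions of both lists the streptavidin tags were a median of 0.843 times the anti-FLAG tags (quartiles 0.703 and 1).

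Within a band of the same p score, anti-FLAG-only regions were also shorter, by their medians, in each of the 7 bands examined. Since the rule goes by overlap of intervals, a longer peak can more readily meet a partner. The part of this in the difference was not tested. Between scores of 60 and 80, 2293 anti-FLAG-only regions had a median length of 715 bp and 25 tags, whereas 1339 anti-FLAG peaks in regions of both lists had 828 bp and 33 tags. Between 100 and 150 the medians were 862.5 bp and 39 tags in 530 anti-FLAG-only regions, against 933 bp and 46 tags in 1852 peaks of both lists. At 300 and above they were 812 bp and 72 tags in 28 anti-FLAG-only regions, against 1213 bp and 128 tags in 1979 peaks of both lists. In that top band the anti-FLAG-only regions had the higher median fold enrichment, 28.9 against 22.4. Tag density there was similar, with medians of 97.9 and 101 tags per kb.

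**Figure D3:**
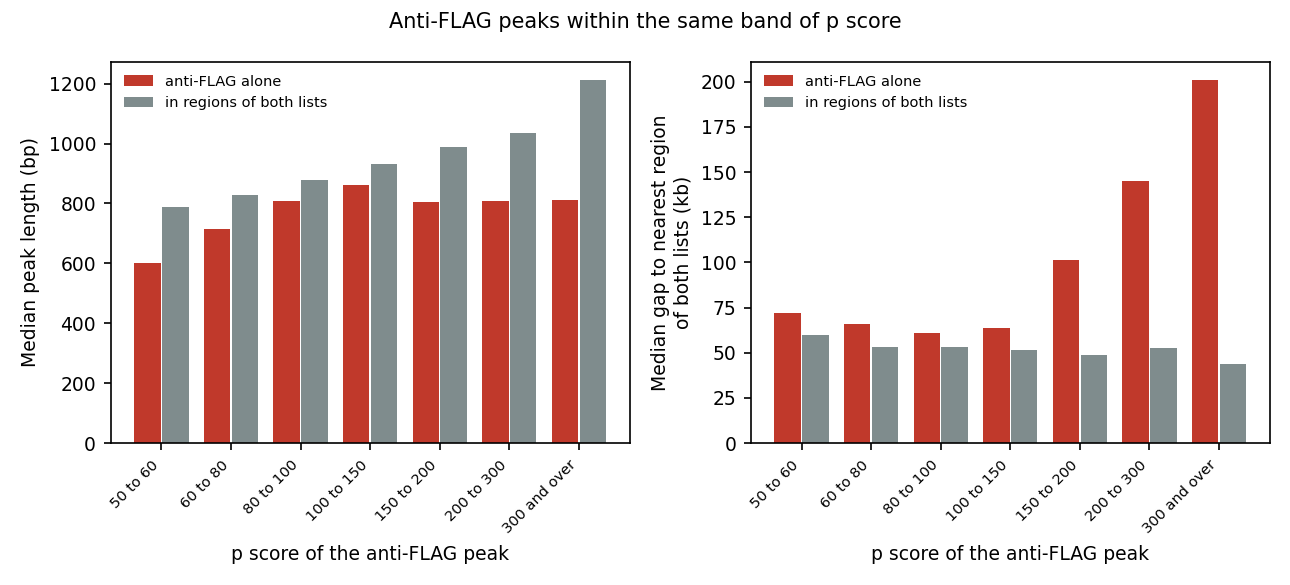
Median peak length (bp, left) and median gap to the nearest region of both CHIR99021 lists (kb, right) by band of p score, for peaks found by anti-FLAG alone and for anti-FLAG peaks in regions of both lists, where the gap runs to the nearest other such region. The bars for anti-FLAG alone are shorter than their neighbours on the left in all 7 bands and taller on the right in all 7, with 201 kb against 43.9 kb at scores of 300 and over.

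Regions of both CHIR99021 lists served as landmarks for where the anti-FLAG-only regions lay. The gap to the nearest landmark had a median of 68.9 kb (95% interval of the median 66.1 to 72.2 kb) and quartiles of 23.5 and 172 kb. It could be measured for 6650 regions, since chromosome Y, with 2 anti-FLAG-only regions, has no landmark. Of the 6650, 164 (2.47%) lay within 1 kb, 915 (13.8%) within 10 kb, 3995 (60.1%) within 100 kb, and 300 (4.51%) farther than 500 kb. Regions found by CHIR99021 streptavidin alone were placed much the same, with a median of 70.1 kb (67.2 to 72.9 kb) and 14.8% within 10 kb. The landmarks themselves lay closer to each other, at a median of 51.3 kb (48.8 to 53.9 kb), with 21.9% within 10 kb of another. The interval for anti-FLAG-only regions overlaps that of streptavidin-only regions and not that of the landmarks. These intervals treat neighbouring regions as independent and rest on 1 library per group, so no difference was tested by them.

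**Figure D4:**
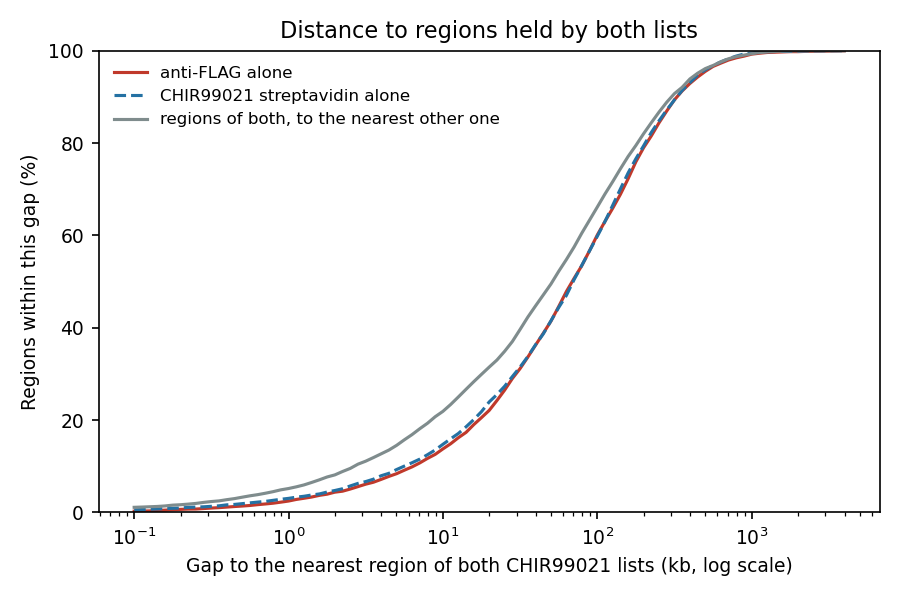
Cumulative share of regions (%) by their gap to the nearest region of both CHIR99021 lists (kb, log scale), for regions of anti-FLAG alone, of CHIR99021 streptavidin alone, and for the regions of both lists to the nearest other one. The curves of anti-FLAG alone and streptavidin alone run together, with 13.8 and 14.8% within 10 kb, and that of the regions of both lists lies above them at 21.9%.

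Anti-FLAG-only regions near a landmark differed from those far away. Within 1 kb of a landmark their median tag count was 32.5 and their median length 851 bp. At 1 to 5 kb the medians were 32 tags and 808.5 bp, at 10 to 50 kb 26 tags and 707 bp, at 100 to 500 kb 23 tags and 652 bp, and beyond 500 kb 22 tags and 622.5 bp. Fold enrichment ran the other way. A fold of 10 was reached by 5.49% of the 164 regions within 1 kb, 6.81% of the 1836 at 10 to 50 kb, 10.7% of the 2355 at 100 to 500 kb and 17.7% of the 300 beyond 500 kb. Regions close to landmarks thus held more tags over a longer stretch at a lower fold, and remote ones held fewer tags over a shorter stretch more often at a high fold.

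The gap to any CHIR99021 streptavidin peak had a median of 36.6 kb, and 245 regions (3.68%) had such a peak within 1 kb. The nearest DMSO peak lay at a median of 52.6 kb, with 952 regions (14.3%) within 10 kb. The nearest other anti-FLAG-only region lay at a median of 91.0 kb, and 94 regions had one within 1 kb. A streptavidin-only region lay within 1 kb of 89 anti-FLAG-only regions.

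At the limit of the rule, the region on chromosome 9 (69562565 to 69563696, 56 tags, fold 5.73) was separated from a streptavidin peak by 1 bp. That on chromosome 8 (3408005 to 3409424, 48 tags, fold 3.43) ended 3 bp from a DMSO peak, and that on chromosome 4 (28486989 to 28487911, 32 tags, fold 10.04) 5 bp from a streptavidin peak. In all, 26 regions lay within 100 bp of a streptavidin peak. Just outside the rule, the shared regions with the least overlap between an anti-FLAG and a streptavidin peak had 1, 30 and 40 bp in common. The first, on chromosome 6 (108208432 to 108210634), held 51 anti-FLAG and 29 streptavidin tags. The second, on chromosome 2 (60717562 to 60718807), held 34 and 19, and the third, on chromosome 4 (117033350 to 117035839), 40 and 50. At the authors' score cutoff, anti-FLAG-only regions on chromosome 7 (127820507 to 127821133) and chromosome 15 (38107606 to 38107986) had a score of 50 with 25 and 14 tags. One on chromosome 18 (25547395 to 25548504) had 50.01 with 53 tags.

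A small set of anti-FLAG-only regions was strong. The 10 with the highest p score held 109 to 163 tags at fold enrichments of 21.6 to 64.7, within 694 to 1162 bp. The first, on chromosome 12 (44073587 to 44074415), had a score of 1357.36, a fold of 60.12 and 159 tags. It was 446 kb from the nearest landmark and 376 kb from any streptavidin peak. The next, on the same chromosome (25109804 to 25110509), held 120 tags at a fold of 64.66 and was 699 kb from a landmark. That on chromosome 4 (152173226 to 152174097) held 163 tags at a fold of 38.91, 473 kb from a landmark. That on chromosome 15 (72520025 to 72520900) held 141 tags at a fold of 39.82 and was the closest of the 10 to a landmark, at 13.4 kb, with a DMSO peak 3.14 kb away. That on chromosome X (108810100 to 108811261) held 133 tags at a fold of 34.98 and was the most remote of the 10, at 1483 kb.

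The other 5 of these regions lay on chromosome 12 (106560230 to 106560923, 120 tags), chromosome 7 (34328217 to 34329238, 124 tags), chromosome 14 (64331568 to 64332698, 124 tags), chromosome 6 (113802007 to 113803073, 128 tags) and chromosome 4 (150662762 to 150663909, 109 tags). Their gaps to a landmark ran from 30.5 kb on chromosome 14 to 411 kb on chromosome 6. Of the 10 regions, 8 were more than 100 kb from a landmark, where 39.9% of all anti-FLAG-only regions lay.

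A fold enrichment of 20 or more, a limit set after the values were seen, was reached by 32 anti-FLAG-only regions (0.481%, interval 0.329 to 0.678%) and by 1311 regions of both lists (14.4%). The 32 steep regions, each a single peak, had medians of 799 bp and 62.5 tags. For the 1311 steep landmarks the medians were 1275 bp and 124 tags. Landmarks are merged regions that take in streptavidin peaks and can hold several anti-FLAG peaks. Lengths and tags of these groups were therefore not measured alike, and no difference in compactness is read from them. The 32 steep regions lay a median of 178 kb from a landmark, whereas steep landmarks lay a median of 55.1 kb from the next. Beyond 100 kb lay 23 of the 32 (71.9%), against 35.5% of the 1311. They were spread over 16 chromosomes, with 6 on chromosome 7, and 2 of them, on chromosome 17 (39243875 to 39244687 and 39265737 to 39266536), were neighbours. These held 75 and 57 tags.

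In the top decile of the anti-FLAG list by p score 19 peaks were anti-FLAG-only regions, while in the top decile of the CHIR99021 streptavidin list 0 were streptavidin-only regions. Scores of 300 or more were held by 28 of 6652 anti-FLAG-only and 0 of 6568 streptavidin-only regions, and folds of 20 or more by 32 and 2. The streptavidin-only region with the highest p score, on chromosome 5 (89004701 to 89005626), had 49 tags, a fold of 20.6 and a score of 259.7. Other streptavidin-only regions reached a fold of 22.7 or held up to 409 tags, against a highest fold of 64.66 and at most 222 tags among anti-FLAG-only regions. A fold of 10 was reached by 8.85% of anti-FLAG-only and 9.17% of streptavidin-only regions. A score of 300 was reached by 2015 of all 16069 anti-FLAG peaks and by 1728 of all 15947 streptavidin peaks. A fold of 20 was reached by 1354 and 1475. Scores and folds depend on the depth and fragment size d of each list. Anti-FLAG-only and streptavidin-only regions both leave out regions with a DMSO peak, and the DMSO list is labelled as a streptavidin capture. The labels give no DMSO anti-FLAG list. These counts are set side by side and were not tested.

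Another small set was broad and low. The 3 longest anti-FLAG-only regions were also among the 5 with the most tags. They lay on chromosome 9 (40606289 to 40610046, 3758 bp, 189 tags, fold 4.6), on chromosome 9 (20804348 to 20807986, 3639 bp, 172 tags, fold 3.25) and on chromosome 8 (86262736 to 86266189, 3454 bp, 222 tags, fold 5.07). The region on chromosome 8 had a streptavidin peak 82 bp away. The other 2 of the 5 with the most tags were that on chromosome 8 from 94656471 to 94659313, with 179 tags at a fold of 4.37, and the steep one on chromosome 4 named above.

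At least 100 tags together with a fold under 6, limits also set after the values were seen, was found in 45 anti-FLAG-only regions (0.677%). Their median length was 2178 bp and their median gap to a landmark 29.3 kb. Chromosomes 8 and 9 held 7 and 16 of them, in all 23 of 45 (51.1%, interval 35.8 to 66.3%), whereas the same chromosomes held 12.6% of all anti-FLAG-only regions. Broad, low regions of both lists numbered 113, a larger share of their class (1.24%). Their tags are summed over merged regions and their fold is that of the leading peak, so these groups were not measured alike. Of the 113, 38 (33.6%) lay on chromosomes 8 and 9, which held 11.5% of all regions of both lists. Chromosomes 8 and 9 also held 20.6% of DMSO peaks.

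By chromosome, anti-FLAG-only regions followed the landmarks with some exceptions. The median over the 19 autosomes was 2.58 per Mb, against 3.76 per Mb for landmarks. The densest autosomes were chromosome 19 with 3.80 and chromosome 9 with 3.78 per Mb, and the sparsest was chromosome 16 with 1.97. On chromosome 19 the anti-FLAG-only regions were 47.3% of its anti-FLAG peaks (42.7 to 52.0%), and on chromosome 13, the lowest of the autosomes, 38.5%. Chromosome X had 0.918 per Mb, 0.356 times the autosomal median, while its landmarks were at 0.518 times theirs and its streptavidin-only regions at 0.330 times theirs. There, 31.8% of anti-FLAG peaks were found by anti-FLAG alone (27.6 to 36.2%), below each autosome's share. Chromosomes 8 and 9 had the lowest median folds of the autosomes, 6.41 and 6.39 against an autosomal median of 6.91, and the median tag count on chromosome 9 was 28 against an autosomal median of 24. The 2 regions of chromosome Y (2619036 to 2619490 and 1140007 to 1140617) held 19 and 27 tags.

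**Figure D5:**
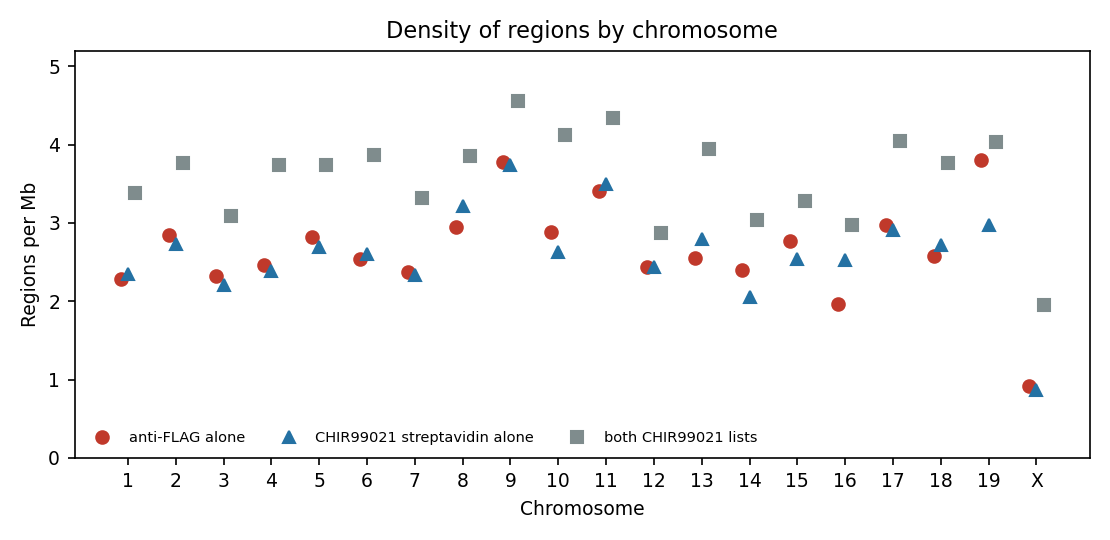
Regions per Mb on each autosome and on chromosome X, for regions of anti-FLAG alone, of CHIR99021 streptavidin alone and of both CHIR99021 lists; each point is 1 chromosome. Chromosomes 9, 11 and 19 lead for anti-FLAG alone with 3.78, 3.41 and 3.80 per Mb, and chromosome X lies lowest in all 3 classes.

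Among 1 Mb windows with at least 1 landmark, anti-FLAG-only regions were more frequent where landmarks were dense. Windows without a landmark were left out of these averages. Windows of 1 Mb with 1 or 2 landmarks held 1.87 anti-FLAG-only regions on average, those with 3 to 5 held 2.86, those with 6 to 9 held 3.97, and the 125 with 10 or more held 4.71. Streptavidin-only regions gave nearly the same averages, 1.74, 2.93, 3.88 and 4.72. The fullest window, on chromosome 15 from 79000001 to 80000000, held 16 anti-FLAG-only regions, 8 landmarks, 6 streptavidin-only regions and 13 of DMSO alone. Its 16 regions had 14 to 90 tags, a median fold of 5.54 and p scores between 52.03 and 86.68. Windows with 12 lay on chromosome 5 (145000001 to 146000000) and chromosome 14 (122000001 to 123000000), beside 4 and 12 landmarks, and 8 and 1 regions of DMSO alone.

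The 5 regions nearest to a landmark held 14 to 41 tags at p scores of 50.05 to 105.69. Gaps of 5 bp were found on chromosome 4 (28486989 to 28487911, score 105.69) and chromosome 8 (29015052 to 29016361, 41 tags). Gaps of 18, 23 and 27 bp were found on chromosome 5 (46396859 to 46397277, 14 tags), chromosome X (11699642 to 11700683, 41 tags, score 101.6) and chromosome 9 (56454275 to 56454954, 27 tags). The 5 farthest all lay on chromosome 12 between 21173012 and 21517742, at 3456 to 3800 kb from a landmark. They held 59, 16, 105, 35 and 17 tags in the order of their positions, at folds of 3.38 to 7.01.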

How the data were processed

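Per the file headers, the authors called peaks with MACS on alignments in ELAND format. The anti-FLAG and streptavidin libraries of CHIR99021 were set against the same input, with 17758366 unique control tags in either header. Their backgrounds are therefore not independent. The DMSO header gives no control depth. The p-value cutoff was 1.00e-05 for every list. Coordinates are mm9, as the submitters' processing notes state. Deposited columns are the tag count of each peak, the p score, a false discovery rate as a percent and the fold ratio over local background, as the headers show. Scores and folds are the authors' values of single peaks. Other deposited columns hold interval positions in bp.

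Intervals (1-based) that overlapped or touched were merged. Gaps are bases between intervals. Shares carry exact (Clopper-Pearson) intervals and medians binomial order-statistic intervals at 95%. Densities divide by the chromosome's span covered by peaks of any list. Alternatives changed the overlap rule, the peak limits, the list lengths and the chromosomes. Merging and gaps were tested on simulated intervals. With 1 library per group no test was possible. Named regions were the 10 of highest p score, the 5 with most tags, the 3 longest, the 5 nearest and 5 farthest, those at the limits, and the fullest 1 Mb window. Regions and rules were chosen with earlier results of these data known. Scripts ran in Python 3.11.15 with scipy 1.17.1, numpy 2.4.6, matplotlib 3.10.9 and pandas 2.3.3.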

Additional observations from a re-analysis of the deposited data

How the results depend on the processing

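Stricter limits applied to all 3 lists changed the set. Anti-FLAG peaks below the limit dropped out, and others entered where their partner peaks in another list fell below it. At a false discovery rate of at most 1% there were 4182 anti-FLAG-only regions, 2731 of them among the 6652, with medians of 35 tags, 817 bp and a gap of 100.3 kb, and 12.4% within 10 kb of a region of both lists. A p score of at least 100 gave 1943 regions (682 of the 6652), with medians of 46 tags, 902 bp and 127 kb, and 11.4% within 10 kb. A fold of at least 10 gave 1293 (589 of the 6652), with 36 tags, 794 bp, 191 kb and 7.82%. The 1% limit on the anti-FLAG list alone left 2731. Merging across gaps of up to 1000 bp left 6248 with a median gap of 72.3 kb and 11.6% within 10 kb, and gaps between summits gave 12.6%. The count was 7187 with 50% reciprocal overlap and 7388 with summits within 200 bp. It was 6555 with the CHIR99021 lists cut to equal length and 6629 with the deposited DMSO windows of 400 bp. Without chromosomes X and Y it was 6502, and without chromosomes 8 and 9 it was 5816. Of 38 alternative values, 19 moved, and 19 stayed within 1.5 times the count or within the interval of the median or share. Alternatives for promoters and motifs were not run, since no mm9 genome was used here. No paired analysis was possible because there is 1 library in every group. Lower streptavidin depth and unknown DMSO depth limit any reading of a region without a peak.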

Other observations

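Some stretches without a region of both CHIR99021 lists held many anti-FLAG-only regions. The one with the most spanned 8.09 Mb of chromosome 12 (17717242 to 25809355) and held 15 anti-FLAG-only regions, 4 streptavidin-only regions and 12 of DMSO alone. Its anti-FLAG-only regions fell into groups. There were 5 between 21173012 and 21517742, and 7 between 25109804 and 25754516, among them the steep one of 120 tags. The other 6 of these 7 held 15 to 52 tags. The densest of the 6 stretches with the most regions lay on chromosome 15 (79295682 to 79734487). There, 10 anti-FLAG-only regions fell within 0.439 Mb (22.8 per Mb), beside 2 of streptavidin alone and 2 of DMSO alone. On chromosome 11 (3848143 to 4579363) 10 lay within 0.731 Mb, beside 3 of streptavidin alone and 6 of DMSO alone. On chromosome 3, stretches from 82246261 to 83676570 and from 83996736 to 85923010 held 11 each, beside 2 and 8 of streptavidin alone and 6 and 13 of DMSO alone. These stretches were picked for their counts, and no test was made.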
